A study of Mus musculus with 24 samples.

Results

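The enzymes that write and erase methyl groups on lysine 4 of histone H3 (H3K4) were followed at the RNA level through the maternal-to-zygotic transition of the mouse. They are 10 of the 55471 annotated genes, chosen by symbol and mapped to Ensembl identifiers. There are 6 methylases, Kmt2a, Kmt2b, Kmt2c, Kmt2d, Setd1a and Setd1b, and 4 demethylases, Kdm1a, Kdm1b, Kdm5a and Kdm5b.

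The study profiled N6-methyladenosine (m6A), a methyl mark on RNA, by SLIM-seq, an m6A immunoprecipitation (IP) for low amounts of RNA. There were 3 IP and 3 input libraries each of MII oocytes, late 1-cell (L1C) embryos and late 2-cell (L2C) embryos. A note of the study names replicates 1 and 2 of MII and L1C and 2 and 3 of L2C as those kept after quality control, without naming the assay. It directly follows the sentence on the deposit of the proteomics data. For SLIM-seq the study's methods speak of genes identified in 2 or more of 3 replicates. All 3 were used here, and calls that were lost with those 2 a stage are named beside the results. An input was sequenced without IP and so gives the RNA levels of its stage as well. The study's methods name an oligo-dT primer for RNA-seq, so these levels can also depend on the poly(A) tail. The part of the tail in the changes between stages was not tested. The second experiment comprised 6 libraries of L2C embryos, 3 with Ythdc1 knockdown (KD) and 3 controls (Ctrl), and asked what the loss of YTHDC1, a nuclear reader of m6A, does to the transcriptome.

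All oocytes and embryos were of the B6D2F1 background, a cross of C57BL/6J and DBA/2N. The females were 8 weeks old and superovulated, and hyaluronidase was used to remove the cumulus cells. Oocytes at MII were unfertilized and collected 14 to 16 h after hCG, and embryos came from mating with B6D2F1 males and were collected after 27 to 29 h (L1C) and 48 to 50 h (L2C). The labels name no injection for the SLIM-seq samples. KD embryos received, as zygotes, mRNA of the RNA-cutting nuclease Cas13d together with 3 guide crRNAs against Ythdc1. Ctrl embryos received Cas13d mRNA and no crRNA, so injection and nuclease are shared by both groups and the presence of any crRNA is not. How many oocytes, embryos or females stood behind a library is not given in the sources used here. By the study's methods the inputs were taken from the same RNA batches as the IPs, without saying which input belongs to which IP. The labels do not say that replicates were separate collections, so p-values measure the spread between these libraries, which may be technical.

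Methyl groups on H3K4 mark promoters and enhancers of active genes. KMT2A, KMT2B, SETD1A and SETD1B act mainly at promoters, KMT2C and KMT2D mainly at enhancers, and all 6 work in complexes with a shared core of WDR5, RBBP5, ASH2L and DPY30 (COMPASS). KDM1A and KDM1B remove mono- and dimethylation, and KDM5A and KDM5B remove trimethylation. Mouse oocytes carry broad domains of H3K4 trimethylation that are cleared around the late 2-cell stage, when the embryonic genome is activated. KDM1B is known from growing oocytes, where it is needed for DNA methylation at imprinted genes.

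SLIM-seq libraries held 11107421 to 39739950 estimated counts and the 5 KD and Ctrl libraries of the whole annotation 8696476 to 14500548 counts. The sixth, a KD library whose file ends early, held 5439131. Replicates differed by more than counting error in every group. Stage markers followed the labels in sum. The 8 oocyte transcripts summed to 7569 to 8713 counts per 1000000 (CPM) in MII inputs and to 835.5 to 849.4 in L2C inputs. The 7 transcripts of the 2-cell stage summed to 28.5 to 33.9 and 421 to 545. From MII to L2C edgeR called all 8 oocyte transcripts lower and 6 of the 2-cell stage higher, but Tcstv1 lower. From MII to L1C 5 oocyte transcripts fell, but Bmp15, Nlrp5 and Zp2 rose. The summed level of 9 cumulus cell markers fell from 22.2 to 24.3 CPM at MII to 5.90 to 7.35 at L2C, with Ptx3 at 0 in every input. Their part in the results below was not tested. The libraries are bulk RNA, so a change in the total RNA of an embryo and a change in the share of 1 gene cannot be told apart. CPM is a share of the library and does not correct for gene length.

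The 10 genes lie on 8 chromosomes of the mouse genome (GRCm38). Setd1a (chr7:127776670-127800122) and Kmt2b (chr7:30568858-30588726) share chromosome 7, Setd1b (chr5:123142193-123168629) and Kmt2c (chr5:25271798-25498783) chromosome 5. The counts of the SLIM-seq libraries refer to the whole gene span with introns, so genes whose spans overlap can share reads. Kmt2b, Kmt2d, Setd1b and Kdm5b overlap no other gene. Kdm1a (chr4:136550540-136602723) overlaps Luzp1 on the opposite strand over 4241 bases, and Luzp1 held a mean of 3635 counts per input. Setd1a overlaps Gm49388 on the same strand over 14515 bases, with a mean of 82.6 counts there. Kdm1b overlaps Tpmt and Dek on the opposite strand over 1239 and 505 bases, and these held means of 320.2 and 4287 counts. Kdm5a overlaps Ccdc77 over 251 bases.

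Across the 3 stages the most abundant demethylase RNA changed from Kdm1b to Kdm5b when measured over the gene span. In transcripts per 1000000 (TPM) over the gene span, which corrects for its length, Kdm1b stood first at MII with 187 ± 10.1 (SD, n = 3) and at L1C with 98.6 ± 1.87. At L2C it stood at 17.9 ± 0.71, after Kmt2d with 37.9 ± 2.50 and Kdm5b with 26.98 ± 0.57. Kmt2a was last at every stage, at 0.12 TPM or less. Libraries of neighbours in this order overlapped at MII only for Kdm5b with Kdm1a and Kdm1a with Kdm5a. At L1C Kmt2b with Setd1a, Kmt2c with Setd1b, and Kdm1a with Kdm5a overlapped, and at L2C Kmt2b with Setd1b.

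Divided by exon length instead, Kdm1b kept the first place at all 3 stages. It stood at 522 ± 23.5 TPM at MII and 79.0 ± 3.77 at L2C, where Kdm5b followed with 71.1 ± 2.39 and Kmt2d with 43.5 ± 3.77. The members' order thus depended on the length that was used, and so did the direction of small changes. From MII to L2C Kmt2c went from 2.72 to 2.21 TPM over the gene span but from 11.2 to 14.4 per exon length. Setd1b went from 1.50 to 1.43 but from 1.21 to 1.80, and Kdm1a from 0.455 to 0.347 but from 1.68 to 2.02. On this scale the 6 methylases summed to 143 ± 6.69 TPM at MII, 80.7 ± 14.2 at L1C, then 67.1 ± 3.09 at L2C. The 4 demethylases summed to 525 ± 23.3, 327 ± 4.01 and 175 ± 1.50. The demethylases thus held 78.6%, 80.3% and 72.3% of the summed level per exon length at the 3 stages, but 51.3%, 54.4% and 53.4% over the gene span. Kdm1b alone made up 78.1% of the sum per exon length at MII, 79.4% at L1C, then 32.6% at L2C, whereas the share of Kmt2d was 17.4%, 16.1% and 17.9%.

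**Figure D1:**
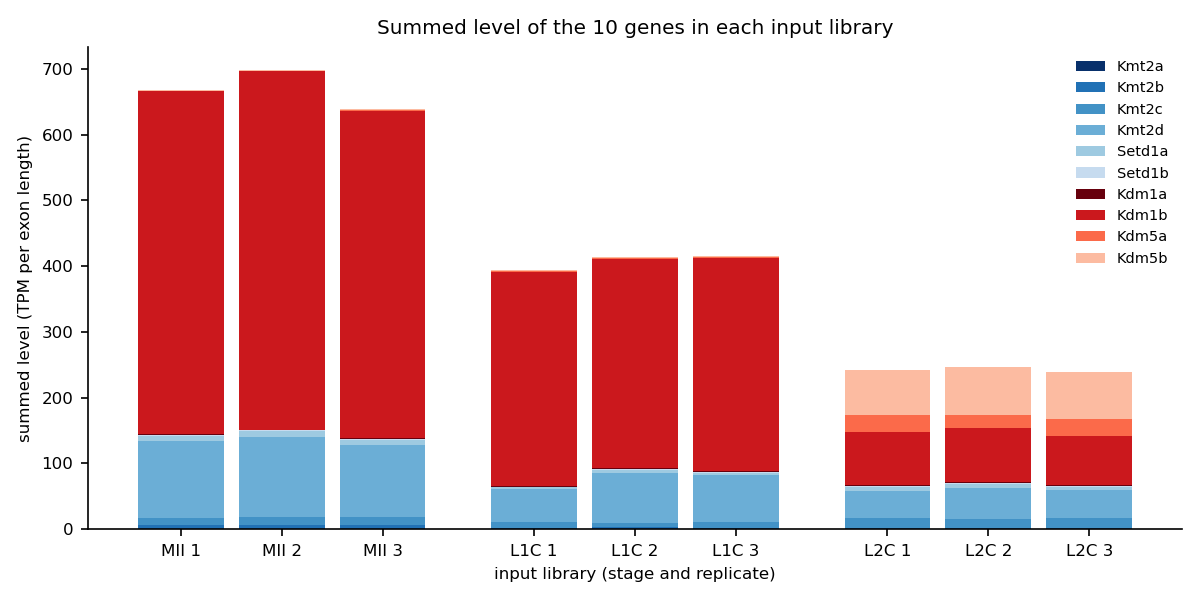
Stacked bars give the summed level of the 10 genes in each of the 9 inputs, as TPM per exon length, with 1 colour per gene (blue shades for methylases, red shades for demethylases). Kdm1b takes most of every bar at MII and L1C, and Kdm5b and Kdm5a become visible at L2C, where the bars are lowest.

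Kdm5b and Kdm5a, the H3K4me3 demethylases, had the largest rises among the 10 genes from L1C to L2C. Kdm5b (chr1:134560171-134635285) held 5.51, 4.95 and 4.69 CPM in the 3 MII inputs, 9.75, 8.68 and 10.0 in the L1C inputs and 432, 462 and 454 in the L2C inputs. Each stage lay wholly above the one before. The fitted log2 change was 0.85 ± 0.13 (SE) from MII to L1C and 5.47 ± 0.14, or 44.4-fold, from L1C to L2C, with adjusted p of 0.00011 and 7.6e-13 in edgeR's quasi-likelihood test.

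Kdm5a (chr6:120364124-120444574) held 3.23, 3.99 and 4.35 CPM at MII, 3.99, 3.03 and 1.55 at L1C, then 137, 105 and 138 at L2C. The first stages overlapped, and every L2C library was far above them. Kdm5a rose by 5.35 ± 0.26 on the log2 scale from L1C to L2C, or 40.9-fold (adjusted p = 1.5e-10), while the difference from MII to L1C was -0.46 (adjusted p = 0.16).

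Kdm1b (chr13:47043499-47085279), the demethylase of the growing oocyte, went the other way. It held 938, 980 and 899 CPM at MII, 631, 626 and 627 at L1C, then 168, 172 and 157 at L2C, and no 2 stages overlapped. The log2 change was -0.63 ± 0.10 from MII to L1C (adjusted p = 0.00014) and -2.02 ± 0.11, or 4.04-fold lower, from L1C to L2C (adjusted p = 3.1e-10). Kdm1a, its paralog and the catalytic subunit of CoREST complexes, held 1.94 to 4.05 CPM at MII, 2.28 to 3.16 at L1C, then 3.28 to 5.01 at L2C. It passed the test in none of the 3 comparisons by edgeR, with adjusted p of 0.65, 0.12 and 0.29 for MII to L1C, L1C to L2C and MII to L2C.

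The promoters of Kdm5b and Kdm1b are shown because these genes had the largest changes in opposite directions. Capitals mark CpG. The sequences are from RefSeq (GRCm38.p6), run from 250 bases before to 50 after the start, and cover chr1:134559928-134560227 (plus strand) and chr13:47043249-47043548 (plus strand).
Kdm5b promoter: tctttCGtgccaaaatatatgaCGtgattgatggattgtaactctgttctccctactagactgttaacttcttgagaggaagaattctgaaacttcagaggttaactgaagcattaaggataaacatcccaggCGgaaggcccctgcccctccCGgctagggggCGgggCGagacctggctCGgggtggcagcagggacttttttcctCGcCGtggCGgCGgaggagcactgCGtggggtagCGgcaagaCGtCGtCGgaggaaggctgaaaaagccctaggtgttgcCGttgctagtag
Kdm1b promoter: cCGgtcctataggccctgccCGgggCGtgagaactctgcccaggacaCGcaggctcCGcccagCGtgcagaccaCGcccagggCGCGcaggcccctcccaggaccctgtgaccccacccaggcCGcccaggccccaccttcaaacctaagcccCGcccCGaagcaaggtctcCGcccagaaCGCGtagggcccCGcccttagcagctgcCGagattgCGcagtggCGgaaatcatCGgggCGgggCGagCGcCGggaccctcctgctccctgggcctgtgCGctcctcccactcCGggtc
The Kdm5b window holds 17 CpG at 54.7% GC and the Kdm1b window 26 CpG at 72.3% GC, against a median of 7 CpG over all 32851 promoters of the table. The GC box CCGCCC occurs once in the first and 6 times in the second, read on both strands, and in 35.7% of all promoters. Neither window holds TATAAA, which 13.6% of all promoters hold, nor the box CCAAT, which 37.4% hold, nor the E-box CACGTG, which 7.15% hold. No motif of these 4 contains another. Of the 10 genes, 7 were in the table, and Kmt2b, Setd1b and Kdm5a were not. CpG counts of the other 5 were 29 for Kdm1a, 56 for Kmt2c, 35 for Setd1a, 36 for Kmt2a and 27 for Kmt2d.

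Among the enhancer methylases, Kmt2d was abundant and fell, and Kmt2c was lower and rose. Kmt2d (chr15:98831669-98871204) held 759, 800 and 720 CPM at MII, 356, 543 and 498 at L1C, then 311, 364 and 319 at L2C. The MII libraries were above all others, and L1C and L2C overlapped through the first L1C library. The log2 changes were -0.76 ± 0.15 and -0.58 ± 0.15 (adjusted p = 0.00055 and 0.0019).

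Kmt2c held 78.3, 72.0 and 74.0 CPM at MII, 59.4, 50.6 and 57.9 at L1C, then 115, 101 and 119 at L2C. It was lowest at L1C, and no 2 stages overlapped. It fell by 0.47 on the log2 scale (SE 0.12, adjusted p = 0.005) and then rose by 0.90 ± 0.12 (adjusted p = 8.4e-06).

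The promoter methylases were lower in the inputs than Kmt2d and took different courses. Kmt2b, the main H3K4 trimethylase of oocytes, held 17.2, 21.8 and 20.6 CPM at MII, 5.28, 8.50 and 7.38 at L1C, then 6.57, 7.36 and 5.92 at L2C. It fell after MII (log2 change -1.55 ± 0.20, adjusted p = 1.5e-05), and the change from L1C to L2C was -0.19 (adjusted p = 0.39).

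Setd1a fell and recovered in part, with 18.1, 18.2 and 16.7 CPM at MII, 6.60, 9.24 and 8.43 at L1C, then 14.1, 14.7 and 12.3 at L2C. No 2 stages overlapped. The changes were -1.18 ± 0.17 and 0.66 ± 0.17 (adjusted p = 4.2e-05 and 0.002). Setd1b, its paralog, had no call from MII to L1C (0.09, adjusted p = 0.75) and rose from L1C to L2C, from 4.12, 6.35 and 5.27 CPM to 8.14, 8.62 and 8.19, by 0.57 ± 0.20 (adjusted p = 0.017). This call was lost without the first L1C input, where the change was 0.40 (adjusted p = 0.078), and in the fit of the L1C and L2C inputs alone (0.48, adjusted p = 0.051), and with 2 replicates a stage (0.60, adjusted p = 0.072).

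Kmt2a (chr9:44803355-44881296), which maintains Hox gene expression later in development, was close to the limit of detection. The MII inputs held 4, 0 and 5 counts, and CPM was 0.945, 1.27 and 0.791 at L1C, then 2.12, 2.05 and 2.15 at L2C. The groups did not overlap. The log2 change was 2.73 ± 0.58 from MII to L1C (adjusted p = 0.0011), a size that rests on those few counts, and 0.97 ± 0.42 from L1C to L2C (adjusted p = 0.042). The second call was lost in 7 of 15 alternatives. Among them were 2 replicates a stage (0.84, adjusted p = 0.16) and the replicate number as a block (0.96, adjusted p = 0.085). The others each left out 1 L1C or L2C input.

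**Figure D2:**
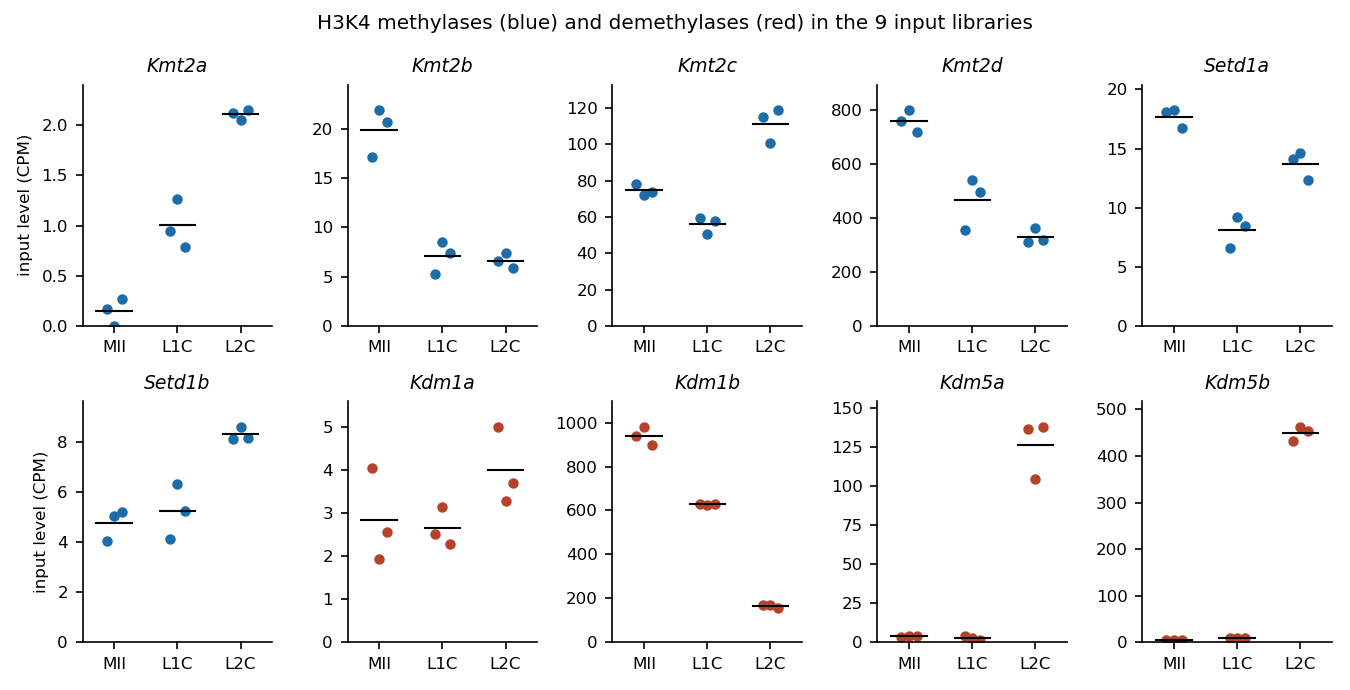
Each panel plots 1 gene, with the CPM of each of the 9 inputs against the stage, on a linear axis of its own that starts at 0. Points are libraries and black lines are means of 3. Kdm5b and Kdm5a are at 10.0 CPM or lower at MII and L1C and above 100 at L2C, and Kdm1b falls at each step.

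Counted over the 10 genes, 2 rose and 5 fell from MII to L1C, 6 rose and 2 fell from L1C to L2C, and 5 rose and 4 fell from MII to L2C. Of the 19903 genes tested, 31.9% rose and 24.3% fell in the first step, 44.1% and 38.8% in the second, and 47.5% and 37.1% over both. Most genes changed in these comparisons, so that a count of this kind is not particular to the enzymes. The median log2 change of the 10 genes was -0.46, 0.62 and 0.38 for MII to L1C, L1C to L2C and MII to L2C, beside 0.16, 0.17 and 0.40 over all tested genes. Input groups did not overlap for 7, 8 and 9 of the 10, against 61.3%, 84.1% and 86.2% of all genes tested.

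From MII to L2C, the 3 comparisons sharing libraries, the changes were 6.33 ± 0.15 for Kdm5b (80.3-fold), 4.90 ± 0.26 for Kdm5a (29.8-fold) and 3.71 ± 0.55 for Kmt2a. They were 0.66 ± 0.20 for Setd1b and 0.43 ± 0.12 for Kmt2c, whose TPM over the gene span went the other way for both. The call of Kmt2c was lost with 2 replicates a stage (0.40, adjusted p = 0.057). Kdm1b was 6.26-fold lower (-2.65 ± 0.11), and Kmt2b (-1.74 ± 0.20), Kmt2d (-1.34 ± 0.15) and Setd1a (-0.52 ± 0.16) fell too. All these had adjusted p of 0.0085 or less. Kdm1a, at 0.33, was the 1 gene without a call.

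The m6A IP asked which of these RNAs carried the mark. An RNA was called m6A-tagged where log2 IP/input exceeded 0 at an unadjusted P under 0.05 and every input of the stage held over 1 count, and IP/input is relative to the typical RNA of the same libraries. Setd1b, Kdm1a, Kdm5b, Setd1a and Kmt2c were tagged at MII, these and Kmt2b at L1C, and Kdm1a, Kmt2c and Setd1a at L2C. That is 5, 6 and 3 of 10, against 19.5%, 18.9% and 24.3% of the 21950 genes tested. An adjusted p under 0.05 called these members too, and 17.7%, 15.8% and 22% of all genes. Kdm1a, Kmt2c and Setd1a were the 3 called at all stages. With log2 IP/input above 1 there were 2, 2 and 0 members, against 7.67%, 5.98% and 10.4% of all genes. The IP/input of genes is not an absolute degree of methylation, and it was measured per whole gene, without the position of the mark.

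Setd1b had the highest enrichment of the 10 at MII. Its inputs held 4.04, 5.04 and 5.23 CPM and its IPs 17.4, 18.0 and 17.2, and at L1C its inputs held 4.12, 6.35 and 5.27 and its IPs 14.1, 12.8 and 19.8. Inputs and IPs stood clearly apart at both stages. Log2 IP/input was 1.65 ± 0.19 at MII (adjusted p = 9e-07) and 1.28 ± 0.18 at L1C (adjusted p = 2.4e-05). At L2C the inputs held 8.14, 8.62 and 8.19 CPM and the IPs 11.4, 9.73 and 11.0, and log2 IP/input was 0.12 ± 0.18 (adjusted p = 0.63).

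Kmt2c had 121, 113 and 116 CPM in the MII IPs, 105, 103 and 92.0 in the L1C IPs and 234, 250 and 237 in the L2C IPs, each above all inputs of its stage. The log2 IP/input of Kmt2c was 0.40 ± 0.10, 0.53 ± 0.10 and 0.85 ± 0.10 at the 3 stages (adjusted p = 0.0042, 0.00052 and 2.8e-06). Setd1a stood at 0.70 ± 0.14, 0.55 ± 0.14 and 0.62 ± 0.14 (adjusted p = 0.00051, 0.0058 and 0.0014), with the reservation of its overlap with Gm49388. Kmt2b was called at L1C with 0.56 ± 0.17 (adjusted p = 0.015) and stood at 0.33 and 0.30 at MII and L2C (adjusted p = 0.12 and 0.16). Its call at L1C was lost without the first L1C input (0.39, adjusted p = 0.085) or the second L1C IP (0.51, adjusted p = 0.055). With 2 replicates a stage the adjusted p was above 0.05 for Kmt2c at MII (0.063) and for Setd1a and Kmt2b at L1C (0.1 and 0.095).

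Of the demethylases, Kdm1a was tagged at every stage, with 10.2, 7.07 and 11.8 CPM in the MII IPs against 4.05, 1.94 and 2.57 in the inputs. Log2 IP/input was 1.51 ± 0.26, 1.37 ± 0.26 and 0.87 ± 0.25 (adjusted p = 0.00013, 0.00047 and 0.0098). The part of reads shared with Luzp1 in these values was not tested. The call at L2C was lost without the second L2C input (0.73, adjusted p = 0.053). Kdm5b was enriched at MII (0.82 ± 0.17, adjusted p = 0.00064) and L1C (0.47 ± 0.16, adjusted p = 0.025), with IPs of 11.0, 13.0 and 7.39 CPM and of 17.3, 17.3 and 14.2. The adjusted call at L1C was lost without the second L1C input (0.40, adjusted p = 0.11) and without the first or second L1C IP (0.41 and 0.41, adjusted p = 0.098 and 0.095).

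At L2C, where Kdm5b was 44.4-fold higher than before, its IPs held 458, 483 and 460 CPM against 432, 462 and 454 in the inputs. The groups overlapped, and log2 IP/input was -0.20 ± 0.14 (adjusted p = 0.28). Kdm5a was not called at any stage, with -0.46, 0.45 and -0.01 (adjusted p = 0.14, 0.14 and 0.97). The sign of the L2C values of Kdm5b and Kdm5a turned when libraries were scaled to their size alone.

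Kdm1b was depleted from the IP throughout. Its IPs held 187, 197 and 197 CPM at MII, 152, 174 and 157 at L1C, then 53.9, 42.9 and 54.6 at L2C, each far below the inputs. Log2 IP/input was -2.51 ± 0.11, -2.26 ± 0.11 and -1.96 ± 0.11 (adjusted p = 1.2e-11, 1.1e-10 and 5.9e-10), the lowest of the 10 genes at each stage. Kmt2d had -0.16 and -0.17 at MII and L1C, values whose sign turned at library size alone, and was depleted at L2C, with IPs of 285, 183 and 257 CPM against inputs of 311, 364 and 319 (-0.70 ± 0.17, adjusted p = 0.0028). Over all genes, 21%, 18.2% and 22% were depleted at the 3 stages. Kmt2a had 1.17 ± 0.65, -0.40 ± 0.45 and -0.55 ± 0.42 and no call. Its value at MII ran from 0.40 to 2.15 over the alternatives.

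The median log2 IP/input of the 10 genes was 0.55, 0.50 and 0.05 at MII, L1C and L2C, against 0.00, 0.07 and 0.09 over all genes tested. Scaling to library size alone moved the median of all genes by 0.20, 0.30 and 0.25 and the share of enriched among called genes from 45.7%, 46.5% and 50.0% to 61.7%, 70.9% and 67.6%. Under that scaling every tagged member kept its call, and Kmt2b at MII and L2C and Kdm5a at L1C were added. When each IP was set against the inputs of its stage and a call in at least 2 of 3 IPs was asked for, 5, 3 and 2 members were called, against 11.7%, 6.9% and 11.5% of all genes. These were the 5 at MII, Setd1b, Kdm1a and Kmt2c at L1C, and Kmt2c and Kdm1a at L2C.

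**Figure D3:**
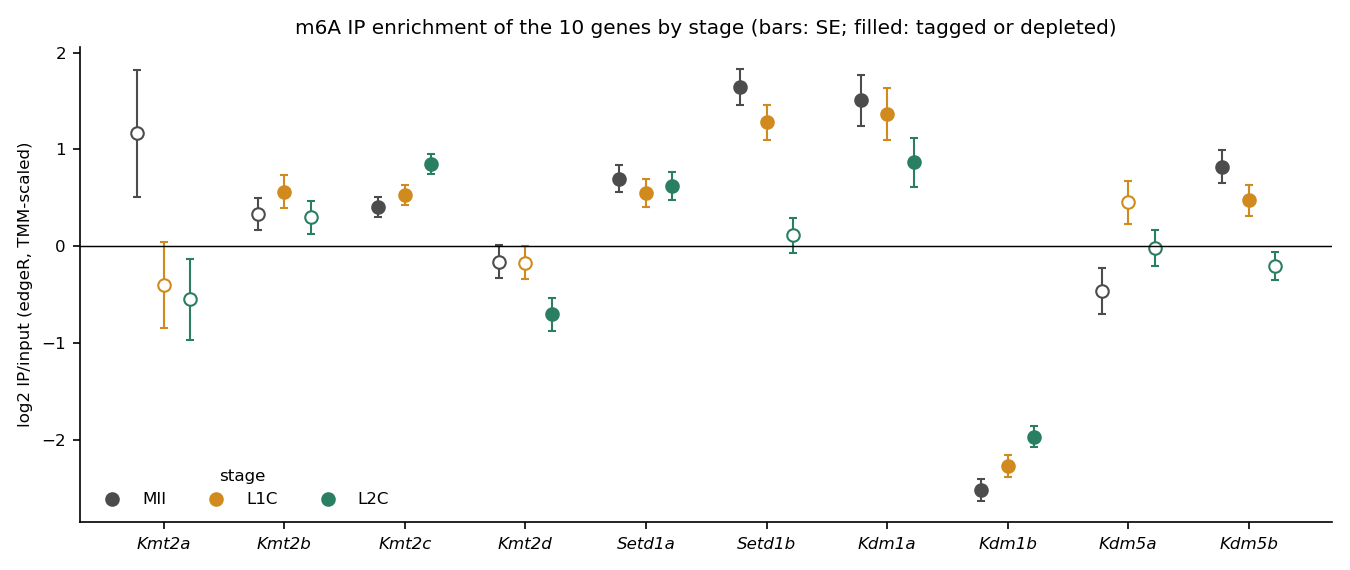
Log2 IP/input of the 10 genes at MII, L1C and L2C, with bars of 1 SE from the edgeR fit on 3 IPs and 3 inputs. Filled points passed an adjusted p under 0.05. Setd1b and Kdm5b go from enriched at MII to near 0 at L2C, Kmt2c stays above 0, and Kdm1b lies lowest at every stage.

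The letters around which m6A most often forms are those of GGACT, 1 form of the DRACH consensus. Windows of coding sequence are shown for the most enriched member at MII, for Kmt2c, tagged at all stages, and for the most depleted one. Kdm1a, at 0.87 beside 0.85 for Kmt2c at L2C, holds 0 GGACT in its coding sequence and so has no window. Each window surrounds the GGACT nearest to the stop codon among those whose 65 bases lie within the coding sequence and 1 exon. Capitals mark the motif, and the windows are read from the transcript strand (GRCm38) at chr5:123161062-123161126 (plus), chr5:25284558-25284622 (minus) and chr13:47068523-47068587 (plus).
Setd1b: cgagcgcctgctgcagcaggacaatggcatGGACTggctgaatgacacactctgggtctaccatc
Kmt2c: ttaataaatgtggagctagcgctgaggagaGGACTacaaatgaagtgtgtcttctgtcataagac
Kdm1b: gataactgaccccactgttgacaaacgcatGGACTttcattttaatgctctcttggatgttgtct
A coding GGACT was a condition for being shown, so its presence in these 3 transcripts is not a result. The density of GGACT on the sense strand was 1.69 per kb of transcript in Setd1b, 0.73 in Kmt2c and 1.20 in Kdm1b, beside a median of 1.01 over 21894 transcripts. Among the members it ranged from 0.33 in Kdm1a, with 1 GGACT in its 3′ UTR, to 2.13 in Kmt2b. Kdm1a was tagged at all stages with the lowest density and Kdm1b depleted at all stages with a density above the median. A match says nothing of whether a site was methylated.

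Changes of enrichment between stages were tested by an interaction term of the fit, which sets IP/input of 1 stage against that of another. From MII to L2C the enrichment of Setd1b dropped by 1.53 (SE 0.26, adjusted p = 0.00032) and that of Kdm5b dropped by 1.02 (SE 0.22, adjusted p = 0.0026), on the log2 scale. Those of Kdm1b and Kmt2c rose by 0.55 ± 0.15 (adjusted p = 0.015) and 0.45 ± 0.15 (adjusted p = 0.035). Over all genes 11.1% had higher and 9.21% lower enrichment. The calls of Setd1b and Kdm5b held under all 24 alternatives, whereas that of Kmt2c was lost in 16 of them, with changes of 0.28 to 0.51 in all, and that of Kdm1b in 5. With the replicate number as a block, which would tie IP and input of 1 number, both were among the calls lost (adjusted p = 0.088 for Kmt2c and 0.058 for Kdm1b), as they were with 2 replicates a stage (0.18 and 0.15). Kmt2d, at -0.54 (adjusted p = 0.12), gained a lower call in DESeq2, with no filter and on the compared libraries alone (adjusted p = 0.034, 0.04 and 0.02).

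From L1C to L2C Setd1b was called (-1.16 ± 0.26, adjusted p = 0.0083, with 4.47% of genes lower and 5% higher), and Kdm5b had -0.67 ± 0.21 (adjusted p = 0.053). With 2 replicates a stage Setd1b lost this call (-1.03, adjusted p = 0.098), and Kdm5b was called (-0.84, adjusted p = 0.046). From MII to L1C edgeR called none of the 10, against 3.13% of genes with higher and 4.21% with lower enrichment. DESeq2 called 0 too, and at an unadjusted P under 0.05 in edgeR there was 1, Kdm5a, with 0.91 ± 0.33 and an adjusted p of 0.11. For Setd1b, the change came with a rise of its input by 0.66 and a drop of its IPs from 17.2 to 18.0 CPM at MII to 9.73 to 11.4 at L2C. For Kdm5b, input and IP both rose, the input by more.

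In the KD experiment the targeted RNA was lower in every KD library. In the merged count table, which ends on chromosome 7 and whose CPM refer to the counts in it, Ythdc1 stood at 1114, 1138 and 1048 CPM in Ctrl and 498, 521 and 493 in KD. Ythdc1 was thus 2.01-fold lower in KD (SE 0.06 on the log2 scale, adjusted p = 1.3e-10). The file of 1 KD library ends there, so the 4 members beyond this point, Kmt2a, Kmt2d, Setd1a and Kdm1b, rest on 3 Ctrl and 2 KD libraries over the whole annotation.

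The 3 crRNAs are printed to show how far they could pair with the enzyme RNAs. Each matches Ythdc1 in full over 23 bases, and capitals mark the longest run complementary to 1 of the 10 genes, in order in Kmt2c, Kdm1a and Kdm1a.
Ythdc1 crRNA 1: cctcattctcagTGTTGTTGCCc
Ythdc1 crRNA 2: aatTCATCATCCTGttctggtac
Ythdc1 crRNA 3: ctcTCAGAACCATCTGgtgtagg
These runs are 10, 11 and 13 bases long. For the second crRNA the longest runs in Kdm5b, Kmt2a and Kmt2d were of 11 bases too, though not necessarily over the same stretch. The longest runs in Kmt2d were of 9, 11 and 11 bases.

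Kdm5b had the largest rise of the 10 in KD. It held 1538, 1522 and 1592 CPM of the merged table in Ctrl and 2267, 2297 and 2395 in KD, and all KD libraries were above all Ctrl libraries. The change was 0.70 ± 0.06, or 1.63-fold (adjusted p = 2.9e-09). Kdm5a rose by 0.30 ± 0.07 (adjusted p = 0.00053), from 720, 721 and 646 CPM to 805, 752 and 808, again without overlap. Both demethylases that appear at L2C were thus higher in KD.

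Kmt2b rose by 0.62 ± 0.14 (adjusted p = 0.00051), from 39.5, 34.1 and 30.8 CPM to 45.8, 45.9 and 56.8. Setd1b rose by 0.37 ± 0.14 (adjusted p = 0.02), from 26.7, 29.5 and 32.7 CPM to 36.7, 34.3 and 33.8. Neither group pair overlapped. The call of Setd1b was lost in DESeq2 (0.38, adjusted p = 0.065), at library size alone (0.25, adjusted p = 0.11), without KD 1 (0.34, adjusted p = 0.067) and without Ctrl 1 (0.31, adjusted p = 0.08). Kdm1a and Kmt2c had 0.04 and 0.04 (adjusted p = 0.74 and 0.56). The CPM of Kmt2c, with 1200, 1173 and 1162 in Ctrl and 1105, 1085 and 1145 in KD, was lower in every KD library before TMM scaling, and the sign of both fitted values turned at library size alone.

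On the whole annotation Kmt2d fell, with 109, 117 and 139 CPM in Ctrl and 73.8 and 71.2 in KD (-0.67 ± 0.10, adjusted p = 3.7e-05). It was the 1 member that fell. Kdm1b rose by 0.31 ± 0.10 (adjusted p = 0.014), from 49.3, 51.8 and 46.1 to 60.2 and 55.7 CPM, a call that was lost without KD 1 (0.25, adjusted p = 0.12). Setd1a had 0.30 ± 0.17 (adjusted p = 0.13) and Kmt2a -0.69 ± 0.36 (adjusted p = 0.1), with groups that overlapped. Setd1a passed without Ctrl 3 (0.50, adjusted p = 0.0048) and with the replicate number as a block (0.51, adjusted p = 0.003). Kmt2a stood at -1.25 without KD 2. A fit without 1 KD library leaves a single one there, which is assumed to vary like the Ctrl libraries, so such a value compares that library and not the condition. The 6 members of the merged table gave values there of 0.68 for Kdm5b, 0.51 for Kmt2b, 0.29 for Kdm5a, 0.40 for Setd1b, 0.06 for Kdm1a and 0.02 for Kmt2c.

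In all, 4 of 6 members rose and 0 fell in the merged table at an adjusted p under 0.05 in edgeR (0 fell in DESeq2 or at an unadjusted P under 0.05), against 33.5% and 37.4% of its 7433 tested genes. Over the whole annotation 5 rose and 1 fell, against 30.5% and 36.4% of 17074. With KD 2 as the single KD library, 2 rose there, as Kdm5a (0.23, adjusted p = 0.093), Kdm1b and Setd1b (0.34, adjusted p = 0.18) lost their calls, and Setd1b lost its call in 7 of 9 alternatives. No member changed by more than 1 on the log2 scale, which 14.7% of the genes of the merged table did upward and 22.5% downward at an unadjusted P under 0.05. Over the whole annotation these shares were 14.4% and 24.5%. The median change was 0.34 for the 6 and -0.06 for all genes of the merged table, and 0.29 for the 10 and -0.09 for all genes of the annotation. With scaling to library size alone the median of all genes in the merged table moved by -0.12.

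Stage transcripts differed between KD and Ctrl at the same time. The 7 transcripts of the 2-cell stage summed to 277 to 310 CPM in KD and 995 to 1018 in Ctrl, and the 8 oocyte transcripts to 720 to 784 and 1619 to 1716. Over the whole annotation 6 of the 7 and 6 of the 8 were called lower in KD. Usp17le of the 2-cell stage and Zp3 of the oocyte were called higher. The 9 cumulus markers summed to 8.96 to 10.1 and 10.8 to 11.8 CPM, with Ptx3, Inhba and Fshr at 0 in both groups. The part of this difference in the changes of the 10 genes was not tested.

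**Figure D4:**
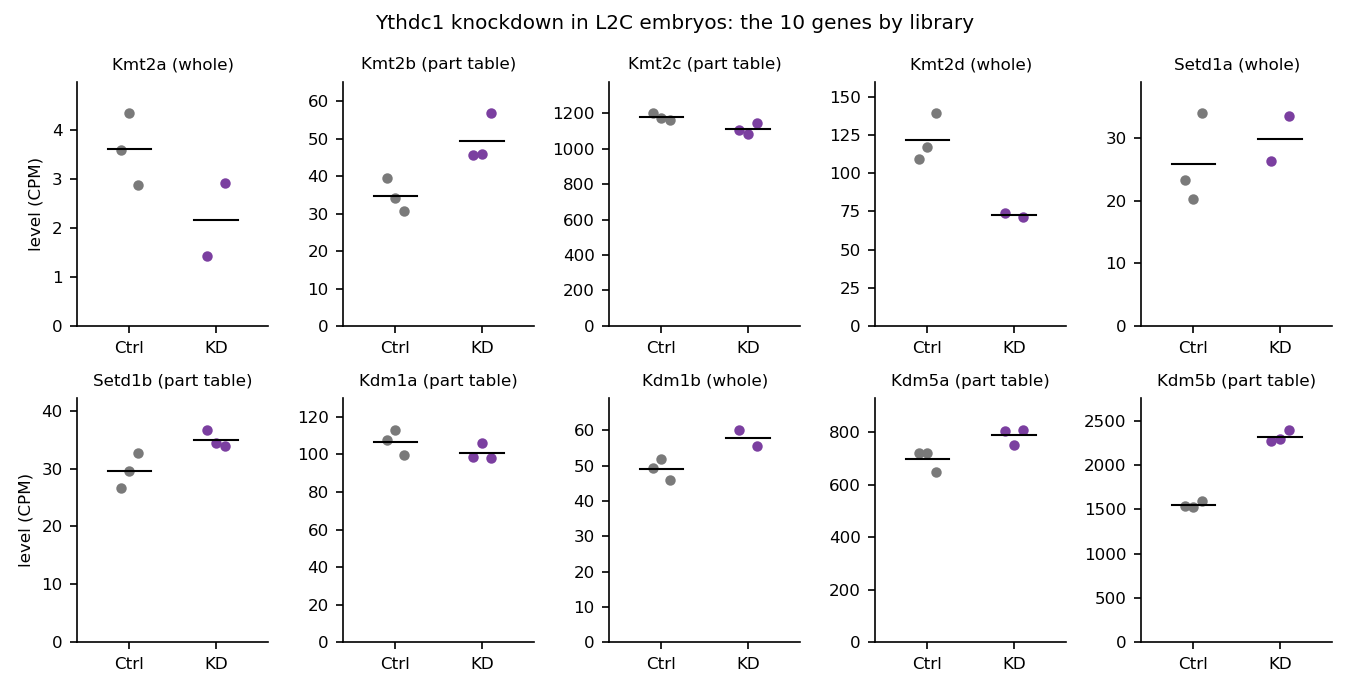
CPM of the 10 genes in each library of Ctrl and KD, each gene on a linear axis of its own that starts at 0, with points for libraries and black lines for means. Panels marked part table hold 3 Ctrl and 3 KD libraries in CPM of the merged table, and panels marked whole hold 3 Ctrl and 2 KD libraries in CPM of the whole annotation. Kdm5b and Kmt2b are higher and Kmt2d is lower in every KD library.

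The L2C inputs and the Ctrl libraries are both of late 2-cell embryos, but differ in injection, library and counting, so their values are set side by side without a test. Kdm1a stood at 4.00 CPM in the inputs, which count whole gene spans, and at 40.1 in Ctrl, which counts exons. Of 11078 protein-coding genes with at least 1 CPM in both, 97.2% had a lower ratio of Ctrl to input. Kmt2c stood at 111 and 443 CPM (90.0% of genes lower). Kdm1b had 166 and 49.1 (19.6%) and Kmt2d 331 and 122 (24.5%). Kdm5b, with 450 and 583 CPM, was closer (63.3%). The median log2 ratio over genes was -0.20 with a 5th to 95th percentile of -3.28 to 2.74. Injection, library and counting cannot be told apart in these ratios.

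Genes of the same pathway were counted in 7 lists with 39 genes, described by counts alone. From L1C to L2C 17 rose, 16 fell and 6 had no call, so their split was close to that of all genes (44.1% and 38.8%). All 4 genes of the COMPASS core, Wdr5, Ash2l, Rbbp5 and Dpy30, fell in this step, among them Rbbp5 with -2.27 ± 0.15 (adjusted p = 2.5e-09). Of 8 CoREST and KDM1 partners 5 rose, among them the deacetylase Hdac1 with 4.57 ± 0.18, or 23.7-fold (adjusted p = 2.2e-11). Of 8 readers of H3K4me3 2 rose, Chd1 (3.58 ± 0.18) and Ing1, and 5 fell, among them Phf8 (-2.46 ± 0.12), which removes other histone marks.

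From MII to L1C 10 of the 39 rose and 18 fell, against 31.9% and 24.3% of all genes. Ash2l had the largest rise among those named by the rule (3.94 ± 0.13, adjusted p = 6.1e-11), beside Smyd1 (1.96 ± 0.15), and Ing1 (-2.18 ± 0.13) and Taf3 (-1.55 ± 0.12) fell. Over both steps 14 rose and 16 fell, against 47.5% and 37.1%, Hdac1 being at 7.43 ± 0.23 and Ash2l at 3.61 ± 0.13, and with Taf3 at -2.44 ± 0.13 and Phf8 at -2.05 ± 0.12.

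In the m6A IP 11, 9 and 13 of the 39 were tagged at MII, L1C and L2C, and 13, 13 and 13 were depleted. Over all genes 19.5%, 18.9% and 24.3% were tagged and 21%, 18.2% and 22% depleted. The smallest P values among enriched partners, not always the highest enrichment, were those of Ash2l (1.18 ± 0.14, adjusted p = 1.6e-06) and Ncoa6 (1.16 ± 0.13) at MII. At L1C they were those of Dpy30 (1.07 ± 0.17) and Psip1 (1.47 ± 0.25), and at L2C of Wdr82 (1.07 ± 0.13) and Ncoa6 (1.01 ± 0.13). Kdm6a, an H3K27 demethylase of the KMT2C and KMT2D complexes, was depleted at MII (-2.59 ± 0.15) and L1C (-1.98 ± 0.14). Cxxc1, the CpG-binding subunit of SETD1 complexes, had -1.59 ± 0.16 at MII and -2.06 ± 0.17 at L2C. Glyr1, a cofactor of KDM1B, had -1.03 ± 0.14 at L1C, and Men1, a KMT2A and KMT2B partner, -2.43 ± 0.22 at L2C.

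The enrichment of some partners changed in each step, with the shares of all genes as given above for the 10. From MII to L1C 2 were higher, Wdr82 (1.19 ± 0.17) and Smyd3 (0.54 ± 0.13), and 4 lower, among them Ash2l (-2.20 ± 0.20, adjusted p = 1.2e-06) and Glyr1 (-1.85 ± 0.19). The call of Smyd3 was lost with no filter on low counts and without the first L1C IP, and with 2 replicates a stage (adjusted p of up to 0.22 over its alternatives). From L1C to L2C 6 were higher, with Phf2 at 1.68 ± 0.31 and Kdm6a at 1.14 ± 0.20, and 2 lower, Men1 (-1.25 ± 0.30) and Cxxc1 (-0.86 ± 0.23). That of Cxxc1 was lost without the first L1C input or the third L1C IP, and those of Cxxc1 and Men1 with 2 replicates a stage (up to 0.12 and 0.1). From MII to L2C 9 were higher and 4 lower, with Wdr82 at 1.83 ± 0.18, Kdm6a at 1.74 ± 0.20, Ash2l at -2.14 ± 0.20 and Glyr1 at -2.08 ± 0.19.

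In KD 17 of 36 tested partners rose and 5 fell over the whole annotation, and 8 of 17 rose and 2 fell in the merged table. Over all genes these shares were 30.5% and 36.4%, and 33.5% and 37.4%. Bod1l, a SETD1 partner, had the smallest P value, with 1.61 ± 0.07 in the merged table, or 3.05-fold (adjusted p = 2.8e-12), and 1.58 ± 0.09 over the whole annotation. Of the 3 KMT2C and KMT2D partners tested, Kdm6a rose (0.66 ± 0.08), and Paxip1 (-0.65 ± 0.13) and Ncoa6 (-0.50 ± 0.07) fell. Over the whole annotation Prdm9, an H3K4 methylase of meiosis, rose by 1.37 ± 0.12, and the reader Spin1 fell (-1.12 ± 0.08, adjusted p = 7.2e-09).

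The genes whose log2(CPM + 1) ran most alike over the 9 inputs were found among 14868 protein-coding genes, as a description, since all values come from the same 9 libraries and mostly follow the 3 stages. Kdm5b was closest to Pms2 (Pearson r of 1.00), Kdm5a to Atp13a3 (0.998), Kdm1b to Gdpd1 (0.999) and Kdm1a to Dach1 (0.891). Kmt2a was closest to Wdr27 (0.994), Kmt2b to Dusp7 (0.996), Kmt2c to Ube3c (0.997), Kmt2d to Mon1b (0.997), Setd1a to Eno1b (0.991) and Setd1b to Cdc37 (0.988). Among the enzymes themselves Kdm5a and Kdm5b were closest (0.975), and Kdm1b and Kdm5b were farthest apart (-0.993).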

How the data were processed

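SLIM-seq libraries (9 IP and 9 input) and 6 knockdown libraries were grouped by their labels. The authors quantified SLIM-seq with kallisto and deposited estimated counts, not scaled to library size, whose targets were whole gene spans on GRCm38. Deposited TPM values come from the same runs. Estimated counts were rounded before fits. In the knockdown experiment Trimmomatic and HISAT2 were used by the authors, who deposited raw exon counts from featureCounts 2.0.1 (Ensembl 99, strand not used). The merged count table holds 25739 genes (46.4% of the annotation), and the file of 1 KD library ends at the same gene. The other 5 libraries cover the whole annotation, with 37.5% to 39.0% of their counts in the merged table.

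Counts were tested with edgeR 4.0.16 (TMM, filterByExpr, quasi-likelihood F test) in R 4.3.3. One fit held all 18 SLIM-seq libraries, one the 9 inputs, one the 6 KD and Ctrl libraries of the merged table and one the 5 libraries of the whole annotation. P values were adjusted by Benjamini-Hochberg over all genes tested, and calls are at an adjusted p under 0.05 unless stated. The SE is the log2 change divided by the root of F. CPM are not TMM-scaled, so ratios of CPM differ from fitted changes. TPM per exon length was computed from the estimated counts and the summed exons of GENCODE M21. DESeq2 1.42.0 was the other tool, and summaries and plots used Python 3.11.15, pandas 2.3.3, numpy 2.4.6 and matplotlib 3.10.9. On simulated data with 200 changed genes, edgeR found 193 with 9 false calls for IP against input at MII, 189 with 12 for L1C against L2C inputs, and 200 with 10 for the knockdown in the merged table. In the real data 44.1% of genes rose and 38.8% fell from L1C to L2C. Recovery at such shares, or by the size of a change, was not tested.

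The 10 genes, the partner lists, the marker lists and the alternatives were chosen with earlier results of these data known. The genes named are the 10 members, Ythdc1, in each comparison the 2 partners with the smallest P in each direction among those called, and for each member the protein-coding gene with the highest r over the inputs among genes with a mean of at least 10 counts. Alternatives were DESeq2, library size alone, no filter, the replicate number as a block, fits on the compared libraries alone, other call rules, another length and each library left out in turn, and, added after the data were seen, 2 replicates a stage.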

Additional observations from a re-analysis of the deposited data

Results flagged for a closer look

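The enrichment of 4 members differed between stages in the interaction test of edgeR, on the log2 scale. Over all genes 11.1% had higher and 9.21% lower enrichment at L2C than at MII, and 5% and 4.47% than at L1C. Setd1b had lower log2 IP/input at L2C than at L1C, with a difference of -1.16 ± 0.26 (SE, adjusted p = 0.0083), and than at MII, with -1.53 ± 0.26 (adjusted p = 0.00032). Kdm5b was lower at L2C than at MII by a log2 difference of -1.02 ± 0.22 (adjusted p = 0.0026). Kmt2c and Kdm1b were higher at L2C than at MII, with 0.45 ± 0.15 (adjusted p = 0.035) and 0.55 ± 0.15 (adjusted p = 0.015), and both of these calls were lost in several alternatives. The call of Setd1b from L1C to L2C was lost with 2 replicates a stage (-1.03, adjusted p = 0.098).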

How the results depend on the processing

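Of 2039 values of members under alternatives, 1959 kept their side of the threshold, among them 43 without a call whose sign turned. 0 called values reversed, 55 lost a call and 25 gained one, and the cause was not tested. Asking for log2 IP/input above 1 left 2, 2 and 0 tagged members at MII, L1C and L2C, against 7.67%, 5.98% and 10.4% of all genes, and calls per replicate left 3 at L1C, against 6.9% of all genes there. For the change of enrichment from MII to L1C, no filter on low counts gave 1 call, in the higher direction. From L1C to L2C DESeq2, library size alone, no filter and the fit on the compared libraries gave 2, both lower. From MII to L2C the higher calls were 0 with no filter, with the replicate block, on the compared libraries and with 2 replicates a stage, an alternative chosen after seeing the data, which left 2 calls in all. Kmt2d gained a lower call in DESeq2, with no filter and on the compared libraries. Without a fold threshold the knockdown calls numbered 4 in the merged table and 6 on the whole annotation. The demethylase share of the summed level was 51.3%, 54.4% and 53.4% over the gene span and 78.6%, 80.3% and 72.3% per exon length.

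With 1 library left out in turn, tagged members numbered 5 to 6 at MII, 6 to 7 at L1C and 3 at L2C, and depleted ones 1 to 2 at MII (2 without L1C input 3), 1 at L1C and 2 at L2C. Changes of enrichment numbered 0 to 1 from MII to L1C (all higher, 1 without L1C input 1), 1 to 2 from L1C to L2C (all lower, 2 without MII IP 2, MII IP 3 or L1C IP 3) and 2 to 4 from MII to L2C (0 to 2 higher, 2 lower). Of the last, 2 in all and 0 higher were left without L2C IP 3, and 1 higher without any MII library, L2C input 1 or 2, L2C IP 1 or 2, or L1C IP 2. RNA changes numbered 7 to 8 from MII to L1C (2 higher, 5 to 6 lower), 6 to 8 from L1C to L2C (4 to 6 higher, 2 lower) and 9 from MII to L2C (5 higher, 4 lower). In the merged table of the knockdown, 3 to 4 rose and 0 fell, and on the whole annotation 2 to 6 rose (2 without KD 1), 1 to 2 fell (2 without KD 2) and 0 to 1 passed the fold threshold. There Setd1b lost its call in 7 of 9 alternatives, and Kmt2a was past the threshold without KD 2 (-1.25, adjusted p = 0.02). Without KD 1 or KD 2 the single KD library there is assumed to vary like the Ctrl libraries. Demethylase shares were 51.2% to 51.4%, 51.3% to 56.5% and 52.8% to 54.4%.

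Inputs and IPs came from the same RNA batches, but no source used here says that equal numbers mark 1 batch. Same-numbered libraries did not deviate together throughout (r of -0.378 to 0.388), so the numbers were not taken as pairs. With the replicate number as a block, 2 members changed enrichment from MII to L2C in place of 4, as Kmt2c (0.45, adjusted p = 0.088) and Kdm1b (0.54, adjusted p = 0.058) lost their calls, and 4 of 106 values of members changed their call. Among them Setd1a rose in the knockdown on the whole annotation (0.51, adjusted p = 0.003). The partner Smyd3 lost its call from MII to L1C. Scaling to library size moved the share of higher among called changes of enrichment from 42.6% to 53.3% (MII to L1C) and the median RNA change of all genes by 0.14 (MII to L2C). DESeq2 was run without the filter, so tool, scaling and genes tested changed together. It gave 42.8% higher in place of 52.8% (L1C to L2C) and medians that differed by 0.13 (L1C to L2C) and 0.17 (MII to L2C). Depth limits Kmt2a most, with 5 or fewer counts in each MII input.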
